A study of Sus scrofa with 10 samples.

Results

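The splicing factors and heterogeneous nuclear ribonucleoproteins (hnRNPs) of swine aortic valve leaflets are described here across 3 groups of arrays. Members were the genes with exactly 1 symbol in the array annotation that began with SRSF, HNRNP, SNRP, SF3A, SF3B, U2AF or PRPF, and each gene was read from its brightest probe set. This gave 56 of the 6765 genes with 1 symbol: 11 SR proteins, 17 hnRNPs, 10 proteins of the small nuclear ribonucleoproteins (snRNPs), 7 subunits of the SF3 complex, 2 U2AF genes and 9 PRPF genes. Of these, 37 had 1 probe set and 19 had several, 88 probe sets in all.

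The RNA came from leaflets of female swine kept on standard chow and was read on the Affymetrix GeneChip Porcine Genome array, which reports each transcript through groups of short probes called probe sets. Juvenile RFH (Rapacz Familial Hypercholesterolemic) swine, a breed with inherited high blood cholesterol, were 3 months old (n = 3 arrays). Adult RFH swine were 2 years old (n = 4), and the juvenile WT animals, of the breed Rapacz Wisconsin Miniature Swine with the genotype given as wild type (RFH -/-), were 3 months old (n = 3). No array came from an adult WT animal here, so age and the course of the disease cannot be told apart between adult and juvenile RFH leaflets, and breed and genotype cannot be told apart between juvenile RFH and WT leaflets. The labels do not say that each array was a separate animal, and the p-values then measure only the spread between these samples.

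Introns are removed from pre-mRNA by the spliceosome, a machine built from small nuclear RNAs, most of them held in a ring of Sm proteins, and from many loosely bound factors. SR proteins carry serine and arginine repeats, bind exons and usually favour their inclusion, while hnRNPs coat the nascent RNA and often oppose it. U2AF and the SF3 complex mark the end of the intron and its branch point, and the PRPF proteins act mainly in the assembly and rearrangement of the complex. Many genes of SR proteins and hnRNPs also control their own messages through alternative splicing and decay.

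Several arrays stood apart before any comparison. Valve interstitial and fibroblast markers (10 of 12 measured), led by VIM, averaged 11.81 to 12.22 on the log2 scale in adult RFH arrays. They averaged 12.42 to 12.51 in juvenile RFH and 12.52 to 12.60 in WT arrays. Adipocyte markers (4 of 6 measured) averaged 7.15, 6.89, 6.23 and 6.09 in adult RFH replicates 1 to 4 and 5.29 to 5.45 in juvenile arrays. Lymphocyte markers (9 of 12 measured) averaged 5.59 to 6.83 in adult RFH, 5.50 to 5.64 in juvenile RFH and 5.26 to 5.45 in WT arrays. Erythroid markers (3 of 5 measured) averaged 7.56 to 8.48 in juvenile RFH, 6.83 to 7.34 in WT and 6.28 to 7.24 in adult RFH arrays. Endothelial markers (9 of 10 measured) averaged 9.33 to 10.26 in adult RFH and 8.64 to 9.35 in juvenile arrays. Cardiac muscle markers (8 of 11 measured) averaged 10.02 in juvenile RFH replicate 2 against 5.30 to 5.99 in the other 9 arrays. Macrophage markers (9 of 13 measured) averaged 11.41 and 11.57 in adult RFH replicates 1 and 2, and 10.86 and 10.83 in replicates 3 and 4. Poly-A controls, transcripts spiked in before labelling, read 0.82 higher in adult RFH than in juvenile RFH (exact permutation test, two-sided, p = 0.0286, which is as low as 4 and 3 arrays can give). The excess of 3' over 5' controls, which grows as RNA breaks down, differed by -0.02 (same exact permutation test, p = 0.943), but adult RFH replicates 1 to 4 spread widely, at 1.75, 2.25, 2.84 and 2.12, against 2.11 to 2.38 in juvenile RFH. Adult RFH replicate 3, with the highest excess, was the lowest adult array in 42.9% of members and in 33.7% of all genes. The poly-A controls also differed by -0.23 between juvenile RFH and WT, lower in RFH without overlap (exact permutation p = 0.1, as low as 3 and 3 arrays can give). The part of these differences in the results below was not tested.

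The study asked how adult RFH leaflets differ from juvenile RFH leaflets. Among the splicing factors, SRSF7, HNRNPAB, PRPF38B, SNRPD1, SRSF3, SF3B5 and HNRNPF rose in adults by 0.39 to 0.81 on the log2 scale, and HNRNPL, HNRNPA3 and SRSF4 fell by 0.38 to 1.20. The other 46 members did not pass the test (limma, Benjamini-Hochberg adjusted p under 0.05 over all 23999 probe sets). Thus 10 of 56 members were called, 17.9%, beside 19.3% of the 6765 genes and 16.8% of all probe sets. In the direction of a rise it was 7 of 56 beside 11.4% of genes, and in that of a fall 3 of 56 beside 7.85% of genes. The median change of the members was 0.08, and that of all genes was 0.02. The groups did not overlap in 14 members, 10 higher and 4 lower in adults, beside 29.9% of all genes (16.6% higher and 13.3% lower).

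Most changes were small. HNRNPL was the only called member that changed at least 2-fold, and the median size of a change, without its sign, was 0.16 for members and 0.20 for all genes. SRSF7, SRSF3, HNRNPL and SRSF4 kept their calls whichever single array was left out. The count of risen members was 2 without juvenile RFH replicate 1, 3 without replicate 2, 3 without replicate 3 and 4 without adult RFH replicate 2, while the called share of all probe sets went from 16.8% to 9.35%, 12.6%, 9.5% and 13.8%. Fallen members numbered 5 without adult RFH replicate 3, where 20.7% of probe sets were called. A fit of only the adult and juvenile RFH arrays, which called 9.62% of probe sets, kept SRSF7, SRSF3, SRSF4 and HNRNPL, and the other 6 had limma adjusted p from 0.0526 (PRPF38B) to 0.0786 (SF3B5).

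**Figure D1:**
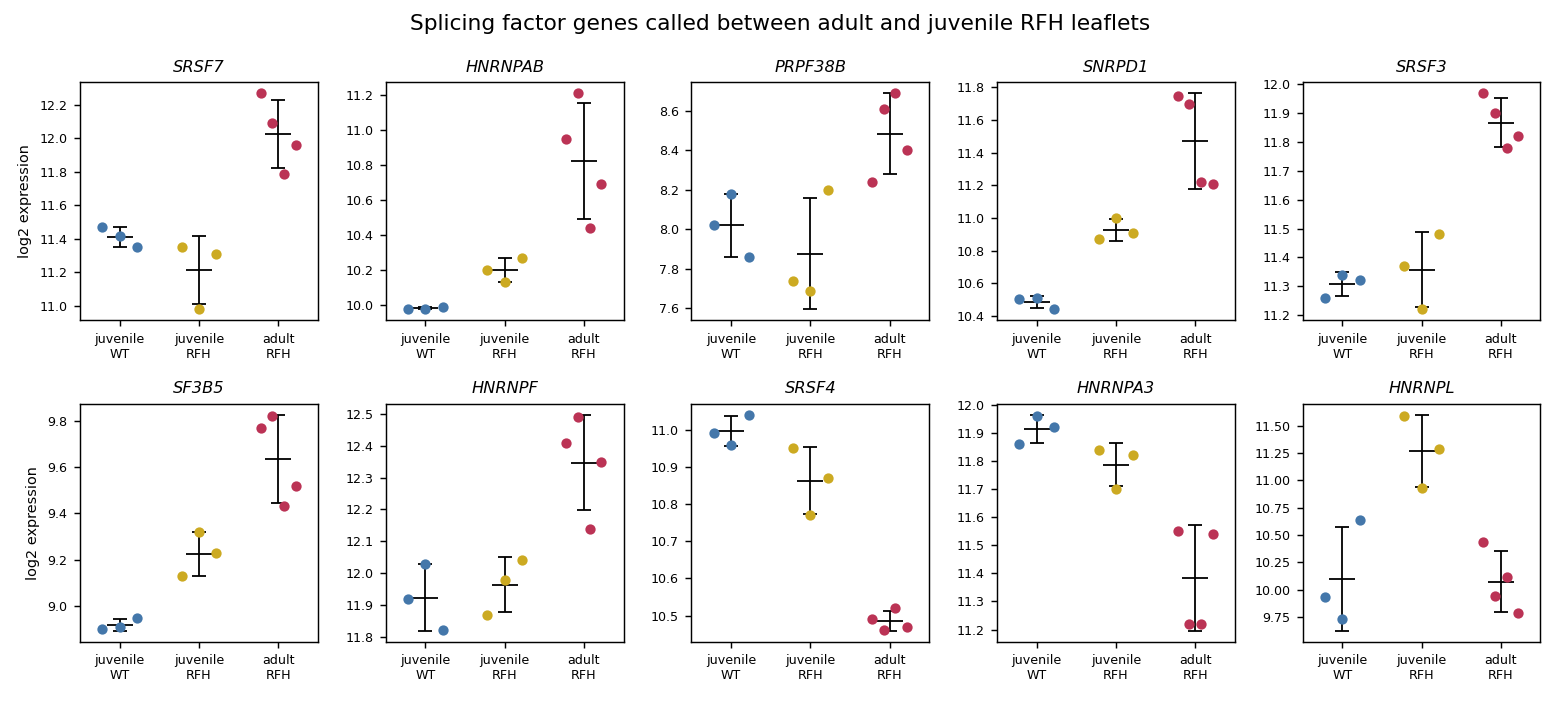
Log2 expression (y axis, a separate scale in each panel) of the 10 called members in juvenile WT, juvenile RFH and adult RFH leaflets. Points are arrays, and bars give the mean and SD of 3, 3 and 4 arrays. In each panel the adult RFH points lie wholly above or wholly below the juvenile RFH points, and HNRNPL is highest in the juvenile RFH arrays.

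Of the 11 SR protein genes 2 rose and 1 fell. SRSF7, an SR protein with a zinc knuckle that binds exonic enhancers and helps in mRNA export, read 11.35, 10.98 and 11.31 in juvenile RFH replicates 1 to 3 and 12.27, 12.09, 11.79 and 11.96 in adult RFH replicates 1 to 4. Every adult array lay above every juvenile RFH array and above the WT arrays, at 11.47, 11.42 and 11.35. The rise was 0.81 ± 0.13 (SE), 1.76-fold (limma adjusted p = 0.00272). SRSF3, the smallest SR protein and a partner of SRSF7 in export, read 11.37, 11.22 and 11.48 in juvenile RFH and 11.97, 11.90, 11.78 and 11.82 in adult RFH arrays. These groups did not overlap either, and the rise was 0.51 ± 0.09 (SE), 1.43-fold (limma adjusted p = 0.00418).

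SRSF4, a large SR protein with a long arginine-serine domain, fell. Its adult values, 10.49, 10.46, 10.52 and 10.47, spanned the narrowest range of the 3 groups and lay below the juvenile RFH values of 10.95, 10.77 and 10.87 and the WT values of 10.99, 10.96 and 11.04. The fall was -0.38 ± 0.08 (SE; limma adjusted p = 0.0088). SRSF1, the prototype of the family, lay just outside the threshold with a change of 0.30 ± 0.09 (SE; limma adjusted p = 0.0521), and its adult arrays, at 10.61 to 10.80, were all above the juvenile RFH arrays, at 10.22 to 10.51. The remaining 7, SRSF2, SRSF5, SRSF6, SRSF9, SRSF10, SRSF11 and SRSF12, had changes from -0.38 (SRSF11) to 0.20 (SRSF5), with adjusted p of 0.181 or more.

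Among juvenile RFH arrays, replicate 2 was the lowest in 9 of the 11 SR protein genes and in 11 of the 17 hnRNP genes, while it was the lowest in 26.8% of all genes. SRSF5, an SR protein that promotes exon inclusion, showed this most, with 11.04, 9.97 and 10.82 in juvenile RFH replicates 1 to 3 against 11.02 to 11.09 in WT arrays. This was the array with the high cardiac muscle markers, whose part in the result was not tested. Of the snRNP protein genes it was the lowest in 1 of 10 and the highest in 7, and it was the highest in 37.9% of all genes. Without it the SR proteins' median change, 0.08 in adult against juvenile RFH, was -0.04.

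Of the 17 hnRNP genes 2 rose and 2 fell. HNRNPL, which binds CA-rich RNA and represses or activates exons according to where it binds, had the largest fall of any member. It read 11.59, 10.93 and 11.29 in juvenile RFH arrays and 10.44, 9.94, 10.12 and 9.79 in adult RFH arrays. Juvenile RFH leaflets lay above every other array, since the WT arrays read 9.93, 9.73 and 10.64, and overlapped the adults. The fall from juvenile to adult RFH was -1.20 ± 0.24 (SE), 2.29-fold (limma adjusted p = 0.00754). The erythroid marker mean was likewise above every WT and adult array in the juvenile RFH arrays, with 2 of its 3 measured genes called down in adults, and its part was not tested. HNRNPL has a single probe set with 1 symbol on this array.

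HNRNPA3, an A/B-type hnRNP related to HNRNPA1, read 11.84, 11.70 and 11.82 in juvenile RFH and 11.55, 11.22, 11.22 and 11.54 in adult RFH arrays. The groups did not overlap, and the fall was -0.40 ± 0.11 (SE; limma adjusted p = 0.0282). The call was lost without juvenile RFH replicate 1 (adjusted p = 0.0977) or 3 (0.0929) and without adult RFH replicate 2 (0.06). HNRNPA1 itself changed by -0.07 ± 0.09 (SE).

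HNRNPAB, a nuclear protein that binds single-stranded nucleic acids, read 10.20, 10.13 and 10.27 in juvenile RFH and 10.95, 11.21, 10.44 and 10.69 in adult RFH arrays. Adults were higher without overlap but spread widely, from 10.44 in replicate 3 to 11.21 in replicate 2. The rise was 0.62 ± 0.15 (SE; limma adjusted p = 0.0202), and the call was lost without juvenile RFH replicate 1 (adjusted p = 0.0656), 2 (0.0632) or 3 (0.0538). HNRNPF, which binds runs of G, read 11.87, 11.98 and 12.04 in juvenile RFH and 12.41, 12.49, 12.14 and 12.35 in adult RFH arrays. The rise was 0.39 ± 0.10 (SE; limma adjusted p = 0.0276). It was lost without juvenile RFH replicate 1 (adjusted p = 0.105), 2 (0.0661) or 3 (0.0574), without adult RFH replicate 1 (0.0557) or 2 (0.0593), with a replicate block (0.0593), and with adult RFH replicates 1 and 2 both left out (a change of 0.28, adjusted p = 0.12).

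Just outside the threshold lay HNRNPH2, a close relative of HNRNPF, with a change of 0.43 ± 0.13 (SE; limma adjusted p = 0.0505). HNRNPU, a scaffold protein that ties RNA to chromatin, changed by -0.71 ± 0.22 (SE; limma adjusted p = 0.0509), from 7.95, 6.86 and 7.38 in juvenile RFH to 6.47, 6.49, 7.01 and 6.77 in adult RFH arrays, with overlap through juvenile RFH replicate 2. The other 11 hnRNPs had changes from -0.24 (HNRNPR) to 0.16 (HNRNPA2B1), with adjusted p of 0.113 or more. HNRNPK, HNRNPC, HNRNPM, HNRNPD, HNRNPDL, HNRNPH1 and HNRNPH3 were among them, with changes from -0.11 to 0.13.

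Of the 10 snRNP protein genes 1 rose and none fell. SNRPD1, a subunit of the Sm ring, read 10.87, 11.00 and 10.91 in juvenile RFH and 11.75, 11.70, 11.22 and 11.21 in adult RFH arrays. All adult arrays were above the juvenile ones, replicates 1 and 2 by more than replicates 3 and 4. The rise was 0.54 ± 0.14 (SE; limma adjusted p = 0.0252). It was lost without juvenile RFH replicate 1 (adjusted p = 0.0885), 2 (0.0505) or 3 (0.0803) and without adult RFH replicate 2 (0.0546), and the change was 0.29 with adult RFH replicates 1 and 2 both left out (adjusted p = 0.058).

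Most other Sm genes were also highest in adult RFH replicates 1 and 2. SNRPG read 12.24 and 12.27 in adult RFH replicates 1 and 2 but 11.45 and 11.53 in replicates 3 and 4, and the juvenile RFH arrays, at 11.53, 11.67 and 11.60, lay between these pairs, with an overlap at 11.53. SNRPF read 9.04, 9.01, 8.53 and 8.39 in the 4 adult arrays, SNRPB 10.38, 10.39, 10.02 and 10.11, and SNRPD3 11.38, 11.50, 11.15 and 11.04. SNRPN, the imprinted relative of SNRPB, was not, with 10.44, 10.20, 10.70 and 10.31. The family mean was 10.38, 10.38, 10.06 and 9.97 in adult RFH replicates 1 to 4, against 10.01 to 10.11 in juvenile RFH and 9.77 to 9.80 in WT arrays. The macrophage marker mean ran from 10.83 to 11.57 in adult RFH, from 10.35 to 10.37 in juvenile RFH and from 9.82 to 10.02 in WT arrays, and it was highest in the same adult replicates, 1 and 2. Of those 9 markers 6 rose in adults. Adipocyte markers split the adults in the same way, with 2 of 4 risen. Lymphocyte markers did too, at 5.95 and 6.83 against 5.65 and 5.59, with none of 9 called. Endothelial markers were also highest in those replicates, at 10.20 and 10.26, but replicate 4 was close at 10.05 and replicate 3 read 9.33. Of the 9 endothelial markers 4 rose and 1 fell, beside 11.4% and 7.85% of all genes. Valve interstitial and fibroblast markers went the other way, at 11.94 and 11.81 in replicates 1 and 2 against 12.13 and 12.22 in replicates 3 and 4. Of those 10 markers 4 fell in adults. The part of these cell types in the snRNP values was not tested. In a bulk sample more cells of a type and more RNA per cell cannot be told apart. The family's median change was 0.12, and -0.10 with adult RFH replicates 1 and 2 left out.

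**Figure D2:**
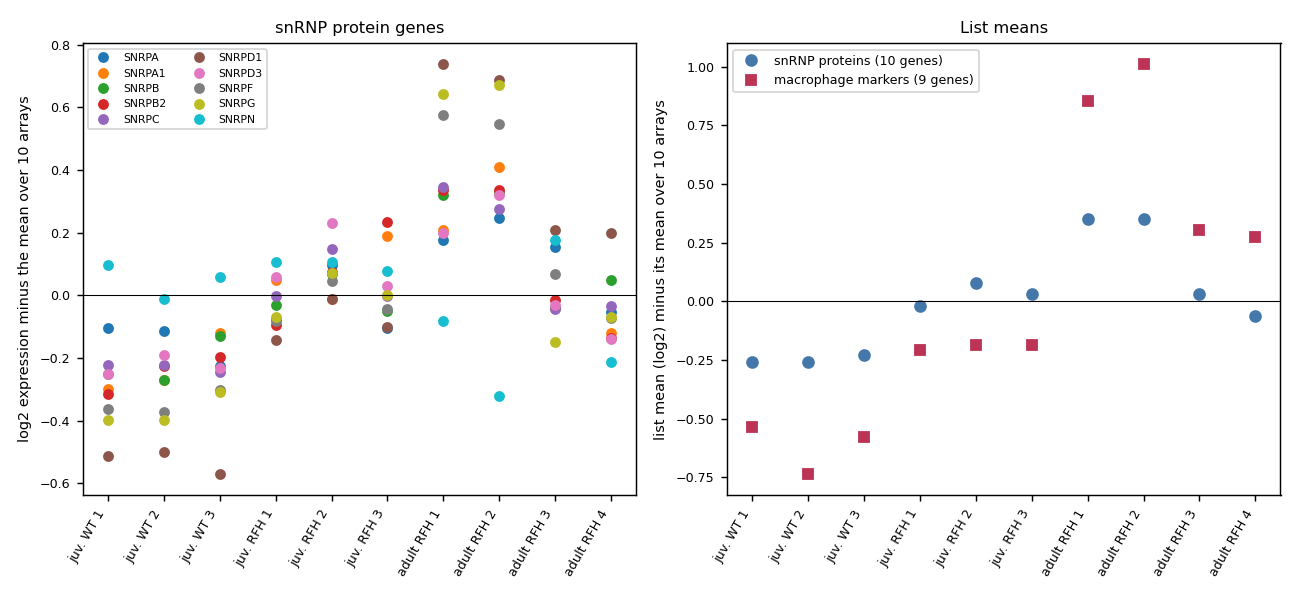
Left, log2 expression of the 10 snRNP protein genes in each array, minus each gene's mean over the 10 arrays. Right, the mean of those genes and of 9 macrophage marker genes in each array, minus its mean over the 10 arrays. For both lists WT arrays are the lowest and adult RFH replicates 1 and 2 the highest.

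In the SF3 complex, which recognises the branch point as part of the U2 snRNP, 1 of 7 genes rose. SF3B5, the smallest SF3b subunit, read 9.13, 9.32 and 9.23 in juvenile RFH and 9.77, 9.82, 9.43 and 9.52 in adult RFH arrays. The adult arrays were higher without overlap, and replicates 1 and 2 were the highest. The rise was 0.41 ± 0.11 (SE; limma adjusted p = 0.0277). It was lost without juvenile RFH replicate 1 (adjusted p = 0.106) or 3 (0.0805), without adult RFH replicate 1 (0.0591) or 2 (0.0575), and with both of those adult arrays left out (0.109). SF3A1, SF3A3, SF3B1, SF3B2, SF3B4 and SF3B6 had changes between -0.18 and 0.13, with adjusted p of 0.236 or more. U2AF2, the subunit that binds the polypyrimidine tract, changed by 0.08 ± 0.08 (SE), and U2AF1L4, a relative of the small subunit, by -0.08 ± 0.08 (SE), with overlap in each.

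Of the 9 PRPF genes 1 rose. PRPF38B, a relative of the tri-snRNP protein PRPF38A, read 7.74, 7.69 and 8.20 in juvenile RFH and 8.24, 8.61, 8.69 and 8.40 in adult RFH arrays. The lowest adult array was only just above the highest juvenile one. The rise was 0.61 ± 0.15 (SE; limma adjusted p = 0.0214), and it was lost without juvenile RFH replicate 1 (adjusted p = 0.0876) or 2 (0.078) and with array weights (0.0516). Its second probe set, with an adult RFH mean of 8.30 beside 8.49 for the brightest, changed by 0.38 (limma adjusted p = 0.0728). The third, which read only 3.56 to 4.03 over all arrays, changed by -0.04. The U4/U6 proteins PRPF3, PRPF4 and PRPF31 changed by -0.08, -0.22 and 0.10, the kinase PRPF4B by 0.22, and PRPF19, the core of the complex that activates the spliceosome, by 0.15. None of these passed the test.

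**Figure D3:**
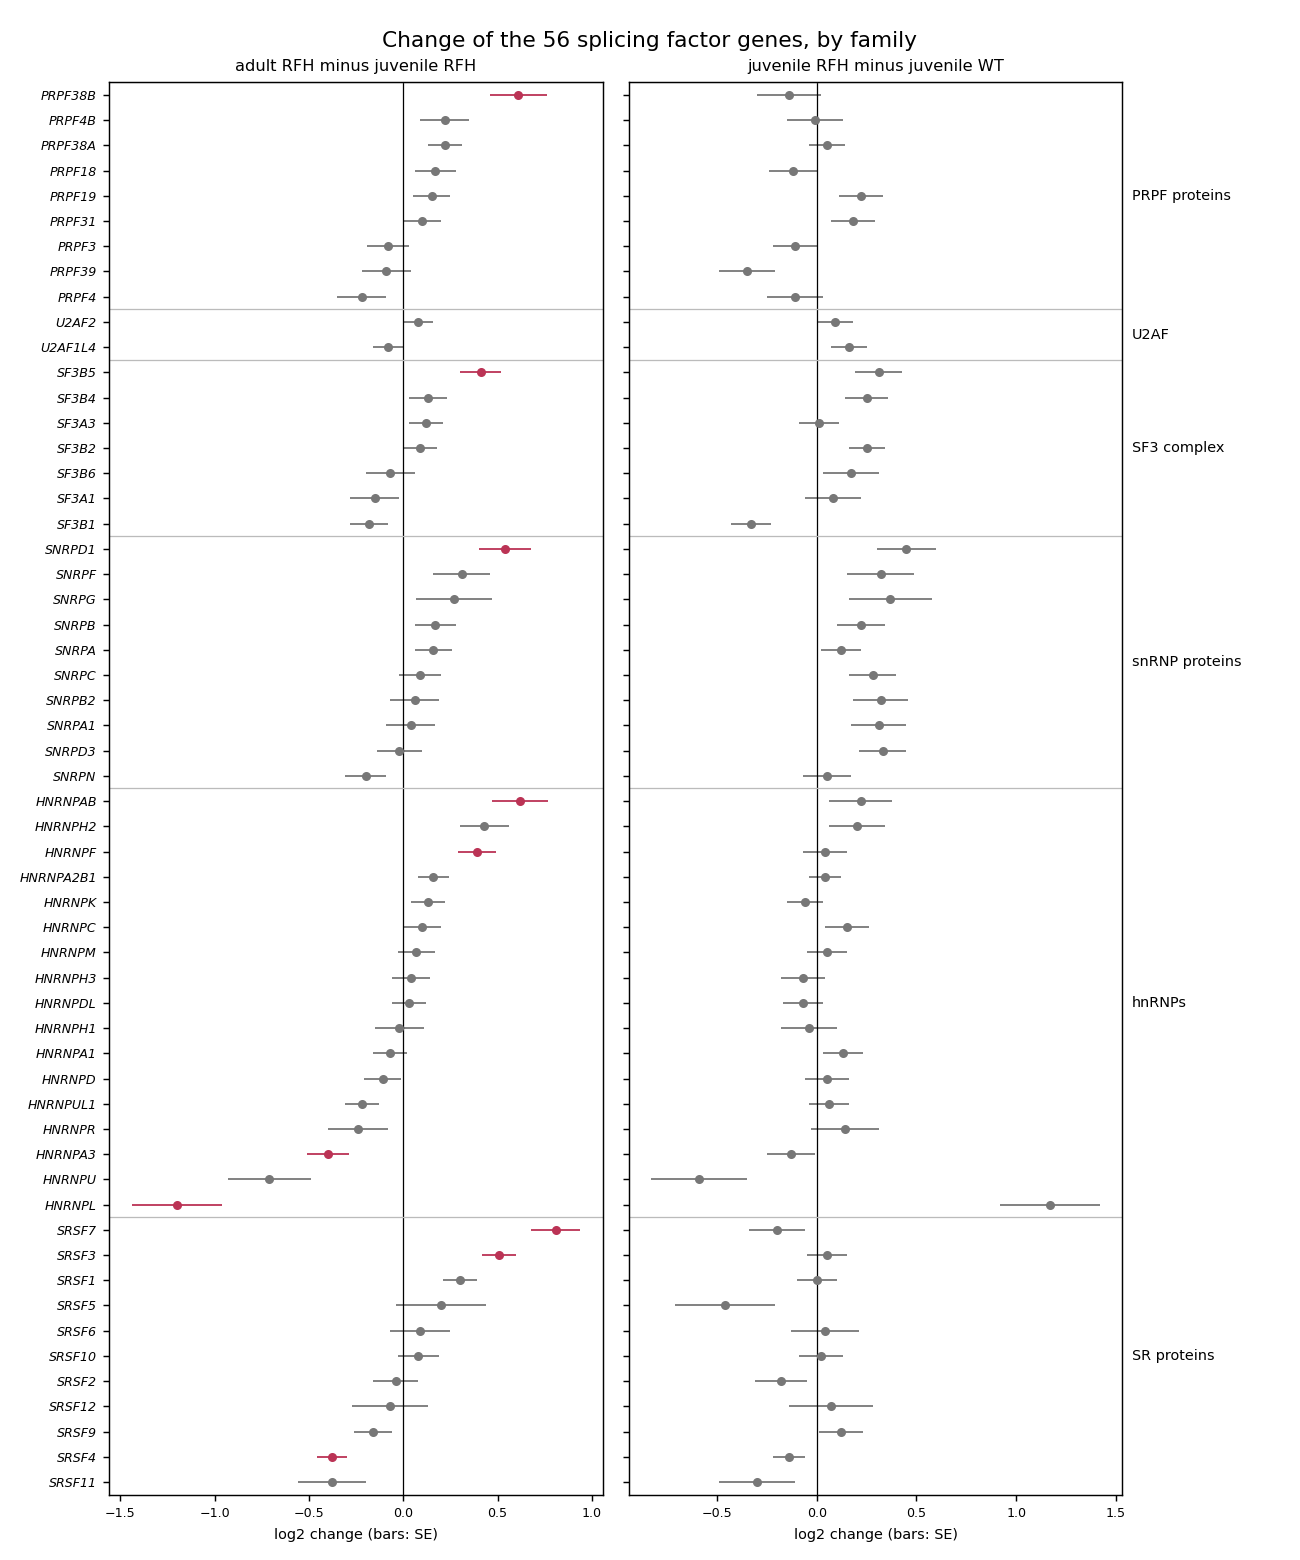
Log2 change (x axis) of each of the 56 members by family, for adult RFH minus juvenile RFH (left) and juvenile RFH minus juvenile WT (right). Points are limma estimates, bars their SE, and red marks an adjusted p under 0.05. The left panel has 10 red points in 5 families and the right panel none, and the panels share the juvenile RFH arrays.

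Probe sets of the same gene did not always move together. The 19 genes with several probe sets had 32 probe sets besides the brightest, of which 2 were called up and 2 down in adults. Over all probe sets 16.8% were called. For SRSF11, an SR-related protein of the spliceosome, the changes from the brightest to the dimmest probe set were -0.38, 0.18, 0.40, 0.59 and -0.55. The fourth rose (limma adjusted p = 0.03) and the fifth fell (limma adjusted p = 0.0116), though the fifth was dim, at 4.76 to 5.76 over all arrays. For SRSF1 the 3 probe sets changed by 0.30, -0.16 and 0.67, and the dimmest rose (limma adjusted p = 0.0416), although juvenile RFH values of 9.19, 8.58 and 8.85 overlapped the adult values of 9.90, 9.65, 9.08 and 9.55. For HNRNPA2B1, one of the most abundant hnRNPs in most cells, the brightest probe set changed by 0.16 ± 0.08 (SE), while the next fell by -0.46 ± 0.11 (SE; limma adjusted p = 0.0189). The 6 probe sets of SRSF6 changed by -0.10 to 0.09, none past the threshold. Which part of a transcript each probe set reads is not given in the sources used here, and cross-hybridisation with related genes was not examined.

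**Figure D4:**
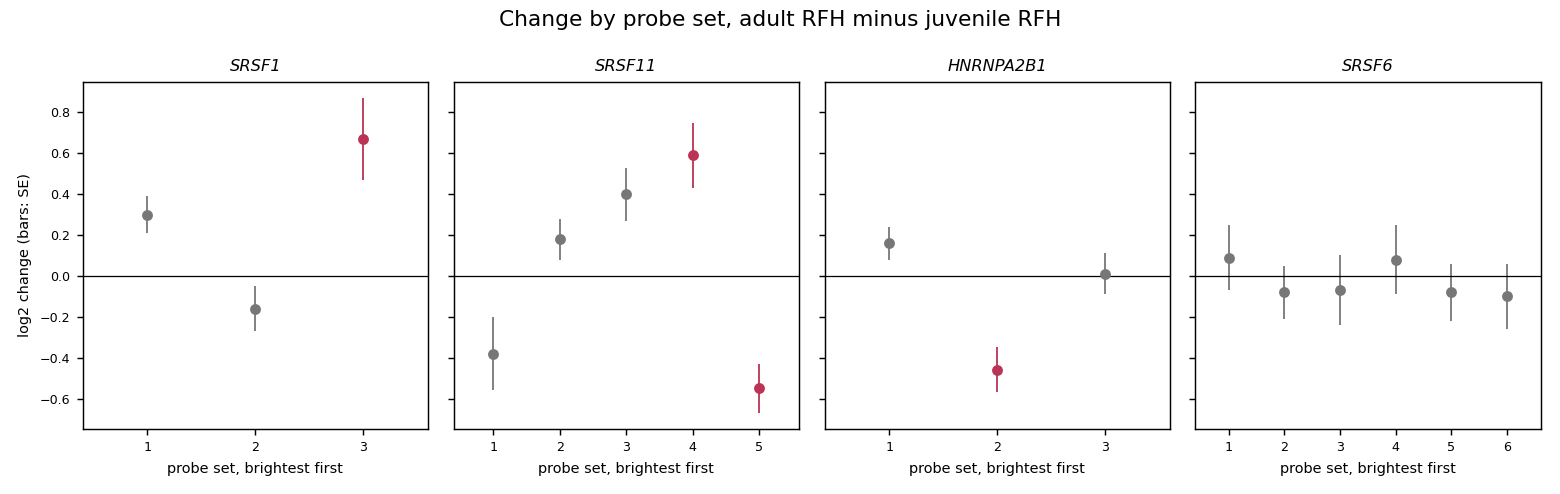
Log2 change in adult RFH minus juvenile RFH leaflets (y axis) for every probe set of SRSF1, SRSF11, HNRNPA2B1 and SRSF6, ordered from the brightest (x axis). Points are limma estimates with SE, and red marks an adjusted p under 0.05. SRSF11 has probe sets called in opposite directions, whereas the probe sets of SRSF6 all lie within 0.10 of 0.

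Genes that work with these factors were counted in 4 lists. The called share was 16.2% in the first list, 16.7% in the second and 33.3% in the last, with the third in between. Beside these, 19.3% of all genes were called, 11.4% risen and 7.85% fallen. Whether a list differed from all genes was not tested. Of 37 measured other components of the spliceosome 3 rose and 3 fell, with a median change of 0.01. BCAS2, a subunit of the complex around PRPF19, read 9.35, 9.72 and 9.76 in juvenile RFH and 10.78, 11.27, 12.77 and 11.25 in adult RFH arrays, a rise of 1.91 ± 0.37 (SE; limma adjusted p = 0.00709). SMNDC1, a relative of the survival motor neuron protein needed for spliceosome assembly, rose by 0.87 ± 0.12 (SE; limma adjusted p = 0.000977). LUC7L3, a U1-associated factor, read 10.13, 9.14 and 10.05 in juvenile RFH and 7.76, 7.79, 8.15 and 8.44 in adult RFH arrays, a fall of -1.74 ± 0.24 (SE; limma adjusted p = 0.00123). LSM6, of the ring that binds U6 RNA, fell by -1.14 ± 0.15 (SE; limma adjusted p = 0.000962). SNU13, a U4 RNA-binding protein, and CDC5L, a partner of PRPF19, were called with changes of 0.27 and -0.39 and adjusted p of 0.0461 and 0.0419, but SNU13 lost its call without any single array (0.0585 to 0.158) and CDC5L in 9 of 10 such fits (up to 0.158; it held without juvenile RFH replicate 1). SNU13 also lost its call in 5 other alternatives (adjusted p from 0.088 to 0.114) and CDC5L in 7 (0.051 to 0.096).

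Of 30 measured other splicing regulators 4 rose and 1 fell, with a median of 0.07. TRA2B, a regulator built like the SR proteins, read 10.70, 10.80 and 10.90 in juvenile RFH and 11.72, 11.65, 11.48 and 11.55 in adult RFH arrays. The groups were far apart, and the rise was 0.80 ± 0.09 (SE; limma adjusted p = 0.000411). RBMX, an hnRNP-like protein also known as hnRNP G, rose by 0.53 ± 0.08 (SE; limma adjusted p = 0.0025) and PTBP3, a polypyrimidine tract binding protein, by 1.10 ± 0.21 (SE; limma adjusted p = 0.00608). KHDRBS1, the signalling-linked regulator Sam68, fell by -0.48 ± 0.10 (SE; limma adjusted p = 0.00986).

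Of 25 measured SR protein kinases, phosphatases, import and snRNP assembly genes 4 rose and 1 fell, with a median of -0.01. The SR protein kinase CLK2 fell by -0.48 ± 0.09 (SE; limma adjusted p = 0.00455), with adult arrays at 8.68 to 8.80 and juvenile RFH arrays at 9.14 to 9.30. CLK3 was called with 0.36 ± 0.09 (SE; limma adjusted p = 0.0217), but not when juvenile RFH replicate 1 (adjusted p = 0.0896) or 2 (0.0663) or both adult RFH replicates 1 and 2 (0.062) were left out, with array weights (0.0534), or with only the compared groups (0.0504). PHAX, which exports snRNA from the nucleus, rose by 0.61 ± 0.12 (SE; limma adjusted p = 0.00699). The catalytic phosphatase subunit PPP2CA was called with 0.39 ± 0.09 (SE; limma adjusted p = 0.013), and lost that call without juvenile RFH replicate 1 (adjusted p = 0.0505) or 3 (0.0565), or without adult RFH replicates 1 and 2 (0.0525).

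Of 18 measured genes of the exon junction complex, mRNA export and nonsense-mediated decay 4 rose and 2 fell, with a median of -0.05. NXT1, a cofactor of the mRNA exporter, rose by 0.93 ± 0.16 (SE; limma adjusted p = 0.00375). The export adaptor ALYREF was called with 0.40 ± 0.09 (SE; limma adjusted p = 0.0158; 0.0516 and 0.064 without juvenile RFH replicates 1 and 3, 0.0675 without adult RFH replicates 1 and 2), and the helicase DDX39A with 0.69 ± 0.17 (SE; limma adjusted p = 0.0193; 0.0791 and 0.0515 without the same juvenile arrays, 0.0568 with only the compared groups and 0.0571 with probe sets averaged by gene). CASC3, a core of the exon junction complex, fell by -0.49 ± 0.11 (SE; limma adjusted p = 0.0123; 0.0572 without juvenile RFH replicate 3, 0.0587 without adult RFH replicates 1 and 2). UPF3A, a decay factor, was called with -0.36 ± 0.10 (SE; limma adjusted p = 0.0311), and its call was lost in 6 of 10 fits that left out an array, those without juvenile RFH replicate 1, 2 or 3, adult RFH replicate 1 or 2, or WT replicate 2 (adjusted p from 0.0518 to 0.107). UPF3A also lost it with cyclic loess (adjusted p = 0.0524), a replicate block (0.0814), only the compared groups (0.0685) and without adult RFH replicates 1 and 2 (0.126).

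The study's other question was how juvenile RFH leaflets differ from juvenile WT leaflets. None of the 56 members passed the threshold in limma, beside 0.133% of genes (0.0887% higher and 0.0443% lower in RFH) and 0.117% of probe sets. An unadjusted limma p under 0.05 was found in 12 of the 56 members, beside 1019 of the 6765 genes. A fit of only these 6 arrays called 2 members (3.63% of probe sets), array weights called 3 (4.88%), and a fit without adult RFH replicates 1 and 2 called 1 (1.95%), with SNRPD1 in each. The fit of all arrays used a shared variance for all groups, so the adult spread entered the SE of this comparison too. The median SD of members was 0.165 for adults, 0.102 for RFH juveniles and 0.058 for WT. The part of the adult spread in these counts was not tested. The snRNP protein genes were higher in RFH in most arrays, with a median change of 0.31. All 10 had positive changes, beside 4438 of the 6765 genes, and the groups did not overlap in 9. Over all members the groups did not overlap in 26, 20 higher and 6 lower in RFH, beside 35.8% of all genes, 26.3% higher and 9.53% lower. The median change of all genes was 0.07.

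SNRPD1 read 10.50, 10.51 and 10.44 in WT arrays and 10.87, 11.00 and 10.91 in juvenile RFH arrays, a difference of 0.45 ± 0.15 (SE; limma adjusted p = 0.261). The adjusted p was 0.0282 when only the WT and juvenile RFH arrays were fitted, 0.036 with array weights and 0.0322 without adult RFH replicates 1 and 2. SNRPD3 differed by 0.33 ± 0.12 (SE), from 10.93, 10.99 and 10.95 to 11.24, 11.41 and 11.21, and SNRPC, a U1 protein that contacts the splice donor, by 0.28 ± 0.12 (SE), from 9.62 to 9.64 in WT to 9.86 to 10.01 in juvenile RFH arrays. SNRPN, the exception, read 10.51 to 10.62 in WT and 10.60 to 10.63 in juvenile RFH arrays. The macrophage marker mean was also higher in juvenile RFH, 10.35 to 10.37 against 9.82 to 10.02, with none of the 9 markers called. The means of the lymphocyte, erythroid and cardiac muscle markers (5.46 to 10.02 against 5.30 to 5.38 for the last) were higher in juvenile RFH without overlap as well. That of the valve interstitial and fibroblast markers was lower without overlap, at 12.42 to 12.51 against 12.52 to 12.60, with none of 10 called. The part of these lists was not tested.

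In the SF3 complex SF3B2, SF3B4, SF3B5 and SF3B6 were higher in juvenile RFH without overlap, by 0.17 to 0.31. SF3B1, the large subunit that clamps the branch point, was lower without overlap, at 11.71, 11.40 and 11.65 against 11.87, 11.96 and 11.91, a difference of -0.33 ± 0.10 (SE; limma adjusted p = 0.231). With array weights its adjusted p was 0.0474. PRPF39, a protein related to the U1 snRNP, differed by -0.35 ± 0.14 (SE; limma adjusted p = 0.32), with its lowest value, 8.99, in juvenile RFH replicate 2. U2AF1L4 differed by 0.16 ± 0.09 (SE) and U2AF2 by 0.09 ± 0.09 (SE), each with overlap.

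HNRNPL had the largest difference of any member, 1.17 ± 0.25 (SE), 2.25-fold higher in juvenile RFH, and its groups did not overlap (limma adjusted p = 0.112; 0.0235 with array weights). This comparison and the fall in adults share the juvenile RFH arrays. The other hnRNPs differed by -0.59 (HNRNPU) to 0.22 (HNRNPAB). Among SR proteins SRSF5 had the smallest p, with a difference of -0.46 ± 0.25 (SE; limma adjusted p = 0.499) that was -0.14 without juvenile RFH replicate 2. The 3 brightest probe sets of SRSF11 were lower in juvenile RFH without overlap, with differences of -0.30, -0.34 and -0.50. The 5 probe sets of SRSF10, a splicing repressor when unphosphorylated, differed from the brightest on by 0.02, -0.51, -0.08, -0.50 and -0.02, none past the threshold (lowest limma adjusted p = 0.0987). The fifth of them read only 2.41 to 2.66 over all arrays. SRSF7 and SRSF3, which rose in adults, differed by -0.20 ± 0.14 and 0.05 ± 0.10 (SE) between the juvenile groups. In the wider lists none of the 37, 30, 25 and 18 measured genes passed. The smallest p of each belonged to DDX46 (-0.46 ± 0.15, SE), CELF4 (0.40 ± 0.14), the snRNP import adaptor SNUPN (0.31 ± 0.09) and ALYREF (0.33 ± 0.10), with adjusted p from 0.199 to 0.255. SNUPN was called with array weights (limma adjusted p = 0.0327).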

How the data were processed

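The deposited table holds log2 expression values for 24123 probe sets on 10 arrays, the unit being read from the values (2.01 to 14.96, array medians 6.96 to 7.03). Per the labels, the submitters' processing notes name R 2.15.2. How background was corrected and how arrays were normalized and summarised is not given in the sources used here. No detection calls were used. The 124 Affymetrix control probe sets were set aside, and limma 3.58.1 in R 4.3.3 was fitted to the other 23999 on all 10 arrays, with 3 group means and eBayes (7 residual and 3.57 prior degrees of freedom), two-sided, with Benjamini-Hochberg adjustment over the 23999. Probe sets with 1 symbol numbered 10069, with several 198 and with none 13732. All 56 members were found by gene ID in the RefSeq table. The fit was tested on simulated data. The number of arrays, 3 or 4 a group, limits the precision.

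The members and lists were chosen with earlier results of these data known. All members could be named. From each list up to 3 called genes per direction were named, or else the gene with the smallest p. Alternative scalings, filters, fits and left-out arrays are in the closing section. The omission of adult RFH replicates 1 and 2 together was chosen after seeing the data.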

Additional observations from a re-analysis of the deposited data

Results flagged for a closer look

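Among the 4 adult RFH arrays, the gap from an extreme value to its nearest neighbour was a larger share of the whole range than Dixon's critical value allows in 2 of 78 genes checked (all members and the named genes of the lists). Chance alone marks about 1 in 20 groups. SRSF6 read 10.98 in adult RFH replicate 2 and 10.35 to 10.41 in the other adult arrays. PRPF3 read 9.35 in adult RFH replicate 3 and 9.08 to 9.12 in the others. Neither gene was called in a comparison.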

How the results depend on the processing

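For the 10 called members and the named genes of the lists no alternative turned a called direction. With at least 2-fold asked for as well, 905 probe sets, 0 risen and 1 fallen member were called in adult against juvenile RFH. A fit of only the compared groups gave 2308 probe sets and 2 risen members there, and 872 probe sets with 2 higher members in juvenile RFH against WT. Array weights gave 1171 probe sets, 2 higher and 1 lower member in the latter. Other counts of called probe sets in juvenile RFH against WT, 28 in the fit of all arrays, were 6 without probe sets whose mean was below the median, 17 with a replicate block, 10 with values raised to 4, 62 with the 3' minus 5' covariate, 12 with 1 probe set per gene and 3 with probe sets averaged by gene. In adult against juvenile RFH, 1 probe set per gene gave 1425 calls and averaging by gene 1355, since fewer features were tested. With adult RFH replicates 1 and 2 left out, 4 members rose, and 13.3% of probe sets were called, beside 16.8% with all arrays. In that fit juvenile RFH against WT had 467 calls with 1 higher member. Leaving out 1 array gave 2243 to 4965 calls, 2 to 8 risen and 2 to 5 fallen members in adult against juvenile RFH, and 2 to 71 calls with 0 members in juvenile RFH against WT. The counts that moved most were 2243 and 2280 without juvenile RFH replicates 1 and 3 in the former, and in the latter 12 and 2 without juvenile RFH replicates 2 and 3, 71 and 50 without adult RFH replicates 2 and 3, and 6, 3 and 15 without WT replicates 1, 2 and 3. Same-numbered juvenile RFH and adult RFH arrays had correlations of -0.156, 0.157 and 0.086 between their deviations from the group means, and same-numbered juvenile RFH and WT arrays 0.185, -0.011 and -0.069, so the numbers were not taken to pair the arrays. The replicate block gave 3922 calls in adult against juvenile RFH, kept 9 of the 10 called members there and lost HNRNPF. Where no value above shows it, the cause was not tested. Signal over background is unknown without detection calls, which limits the dimmer probe sets such as U2AF2 and SRSF12. Dimmer still were the dimmest probe sets of SRSF10, PRPF38B and SRSF11.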
